A study of Mus musculus with 4 samples.

Results

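The comparison set 2 populations of intestinal myeloid cells that both carry CD11c, the integrin chain usual on dendritic cells (DCs), but differ in the integrin chain CD11b. CX3CR1- cells were sorted as CD11c+ CD11b+ cells without the fractalkine receptor CX3CR1, and DCs as CD11chigh CD11b- cells. The sample title of the first also calls it a DC, and that of the second names CD103. The arrays were taken by these labels, 2 of the 4 in the series, and every probe set outside the controls that names exactly 1 gene was read, which gave 20380 probe sets and 12393 genes. Both were taken from C57BL/6J mice, from the layer of connective tissue on which the epithelium of the large intestine rests (lamina propria), with no treatment or genetic change in the labels. The age, sex and number of the mice behind each array are not given in the sources used here. The series holds 2 further populations, CX3CR1high macrophages (CD11c+ CD11b+) and CD11c- CD11b+ cells, whose signals are set beside the others where they place a gene. RNA was biotin-labelled from the 3′ end and read on a microarray, after a check of its integrity per the labels' protocols. Each population was hybridised to 1 array, so there is no spread between animals and no test, and every ratio describes these arrays.

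Conventional DCs take up antigen in tissues, mature, and move along lymph to present it to T cells. They fall into a lineage that carries the chemokine receptor XCR1, depends on the transcription factors IRF8 and BATF3 and is suited to cross-presentation on MHC class I, and a lineage that carries CD11b and SIRP alpha and draws on IRF4, ZEB2 and NOTCH2. In the gut wall, CD11b is also carried by macrophages and by cells that arise from blood monocytes, which can express CD11c as well.

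Values are linear signal units on the scale of the authors, and a ratio is the CX3CR1- signal over the DC signal. Signals under 103, the pooled median of the 4 arrays without controls, were raised to that floor. Where only 1 of the signals reached the floor the ratio is a bound, given as at least so many fold, and where neither did none is given. Of the 12393 genes, 6178 were at or above the floor in both arrays, 735 only in the CX3CR1- cells and 353 only in the DCs, which left 7266 genes with a ratio. At 4-fold or more, 254 genes were higher in the CX3CR1- cells (3.5% of those with a ratio) and 58 were lower (0.798%). With the medians of the arrays made equal these counts were 194 and 92, so the share of calls that were higher was 81.4% on the scale of the authors and 67.8% with equal medians. That rescaling moved the median log2 ratio of all genes from 0.04 to -0.16. At the 2-fold limit used for gene lists, 998 genes (13.7%) were higher and 632 (8.7%) lower. Every count of list members below stands beside these shares. The lists and their members were chosen with earlier results of these data known. A count beyond these shares is therefore a description and no independent test.

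The arrays differed in how evenly they read along a transcript. The ratio of the 3′ over the 5′ control signal, which grows as RNA is less intact or copied less far, was 3.40 for Gapdh and 2.76 for Actb in the CX3CR1- cells and 0.791 and 1.115 in the DCs. The 3′ Gapdh control was close in the arrays (12282 against 13271), whereas the 5′ control was 4.65-fold lower in the CX3CR1- cells (3608 against 16776). A probe set far from the 3′ end could therefore pass the 4-fold limit as lower with the 3′ end nearly unchanged, as that control did. Probe sets of the same gene differed in their log2 ratios with an SD of 0.52 over 1998 genes, the largest of the 6 pairs of arrays (0.31 to 0.46 in the other 5). The part of this unevenness in single genes was not tested, since the position of each probe set was not used here.

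**Figure D1:**
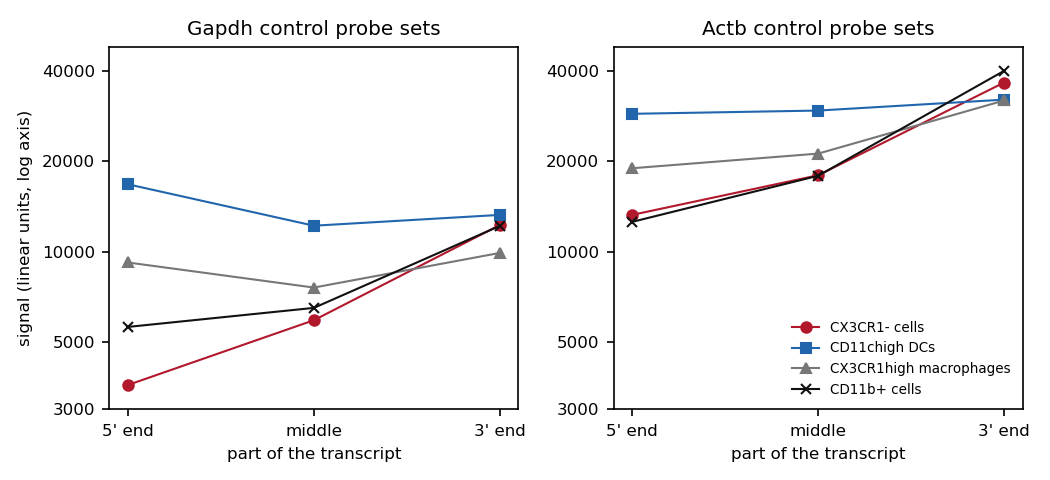
Signals of the control probe sets at the 5′ end, middle and 3′ end of Gapdh and Actb (linear units, log axis) in each of the 4 arrays, 1 point per probe set and array. The lines of the CX3CR1- cells climb from 3608 to 12282 for Gapdh and from 13274 to 36574 for Actb, and those of the DCs stay between 12216 and 16776 and between 28777 and 32078.

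The genes of the sorted proteins checked the labels and are no finding. Itgam, which encodes CD11b, stood at 408 in the CX3CR1- cells and under the floor in the DCs (45.9). Itgax, which encodes CD11c, was high in both (8412 against 5893). Cx3cr1 stood at 291 in the cells sorted as lacking its protein, against 65.2 in the DCs, 638 in the CD11b+ cells and 1499 in the CX3CR1high macrophages, so its transcript was low but above the floor. Itgae, the gene of CD103, was 13.3-fold lower in the CX3CR1- cells (374 against 4962).

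**Figure D2:**
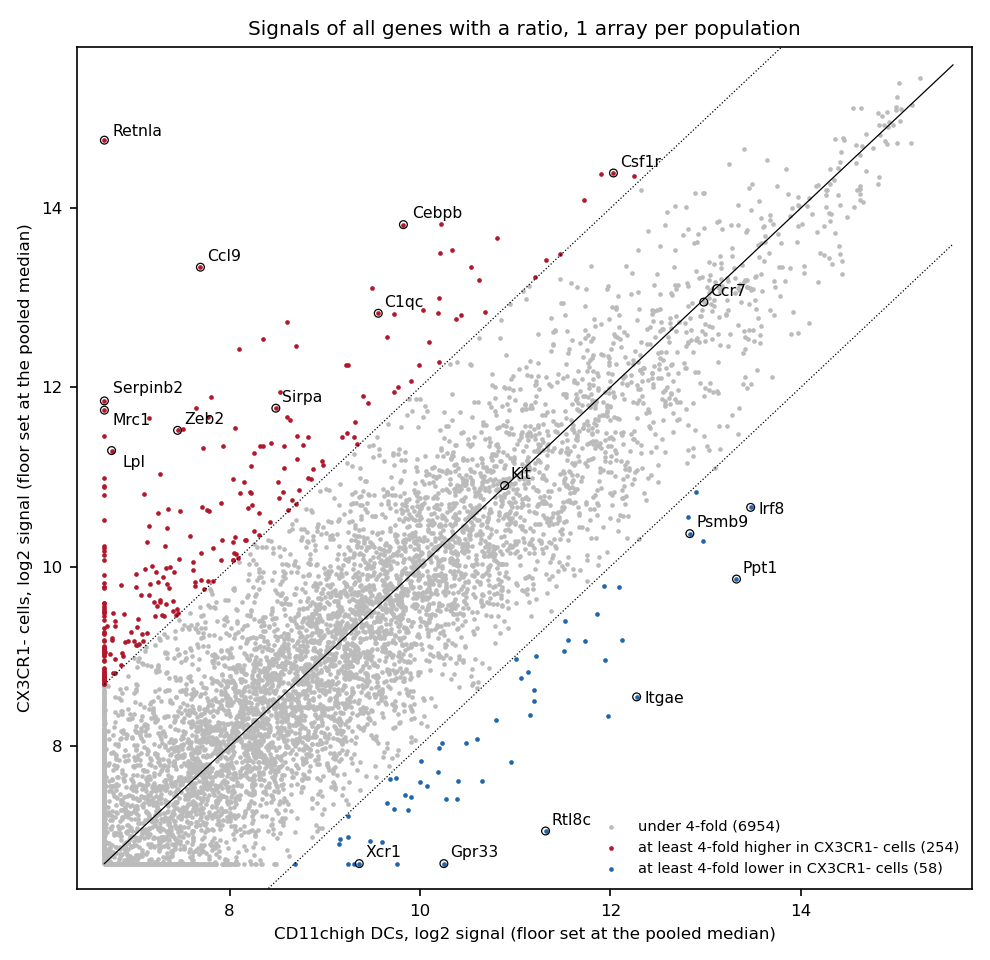
Log2 signals of the 7266 genes with a ratio in the CX3CR1- cells (vertical axis) against the DCs (horizontal axis), 1 array each, with signals under the floor raised to it. The solid line marks equal signals and the dotted lines 4-fold; 254 genes lie above the upper line, with Retnla furthest, and 58 below the lower line, with Rtl8c and Itgae furthest among those measured in both arrays.

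Genes of the XCR1 lineage set the DCs apart. Of the 21 genes listed for that lineage, 17 were measured and all 17 had a ratio. In the CX3CR1- cells 11 of them were at least 2-fold lower and 0 higher, and the log2 ratios had a median of -1.55. Over all genes the shares were 8.7% and 13.7%, but the members were picked with earlier results of these data known. The list holds Itgae, whose protein names the DC sample; without it 10 of 16 were lower and the median was -1.53. Xcr1, the receptor for the chemokine XCL1, stood at 658 in the DCs and under the floor in the CX3CR1- cells (42.1), the CX3CR1high macrophages (28.7) and the CD11b+ cells (5.02), which gives a ratio of at least 6.4-fold. Irf8, the transcription factor on which this lineage depends, was 7.03-fold lower in the CX3CR1- cells (1619 against 11382), and a second probe set gave 561 against 4208. Irf8 was lowest in the CX3CR1- cells of all 4 populations, under the CD11b+ cells (2322) and the CX3CR1high macrophages (3272). Gpr33, an orphan chemoattractant receptor, was at least 11.8-fold lower and Gcsam at least 6.18-fold lower, both as bounds. Naaa, a lysosomal amidase, was 4.2-fold lower (1818 against 7639.9), and the endocytic lectin Ly75 (DEC-205) 3.32-fold lower (175 against 581). Tlr3, the sensor of double-stranded RNA, was under the floor in the CX3CR1- cells (42.1) and at 309 in the DCs.

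Not all genes of that lineage separated the arrays. Batf3, the partner of IRF8, stood at 724 in CX3CR1- cells and 1285 in DCs, a difference of 1.77-fold, and both lay above the 325 and 238 of the CX3CR1high macrophages and CD11b+ cells. Id2, a regulator needed for this lineage, had near equal signals (12585 against 12648) in the probe set used, and 5013 against 10903 in another. Cd24a was likewise within 2-fold in the probe set used (9830.4 against 12281), but 2935 against 7605 in another. Cadm1, an adhesion molecule, was at 906 against 1584, with log2 ratios of -1.10, -1.21 and -1.92 (a bound) in its 3 other probe sets. The scavenger receptor Cd36 was 2.92-fold lower than in the DCs (1004 against 2932), although its signal was 4876 in the CX3CR1high macrophages.

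Genes of the CD11b lineage ran the other way. Of 20 listed genes 17 were measured, 12 were higher by 2-fold or more in the CX3CR1- cells and 1 lower, and the log2 ratios had a median of 1.99. The list holds Itgam, which the sort fixed. Without it 11 of 16 were higher and the median was 1.81. The summed signal of the 17 measured members was 50454 in CX3CR1- cells, 53042 in CD11b+ cells, 43110 in CX3CR1high macrophages and 20420 in DCs. By that sum the DCs were the low array, and the CX3CR1- cells did not stand apart from the CD11b+ cells. Zeb2, a transcriptional repressor, was 16.8-fold higher (2938 against 175), and Sirpa, the receptor for CD47, 9.73-fold higher (3488 against 359). Both genes also had high signals in the CX3CR1high macrophages (1944 and 3724) and the CD11b+ cells (2675 and 3873), so the DCs were the low array. The galactose-binding lectins Mgl2 (14.9-fold, 3255 against 218) and Clec10a (10.7-fold, 2596 against 244) were highest in the CX3CR1- cells of the 4 populations, at 2291 and 1952 in the CX3CR1high macrophages. Cd209a, a lectin of the DC-SIGN family, was high in the CX3CR1- cells alone, at 2603 against 381 in the DCs, 542 in CX3CR1high macrophages and 373 in CD11b+ cells. Irf4, the transcription factor of this lineage, was 2.76-fold higher (979 against 354), and stood at 495 in CD11b+ cells and 703 in CX3CR1high macrophages. The receptor Notch2 was 2.46-fold higher (3376 against 1371), but it was as high in CD11b+ cells (3377), with 2473 in CX3CR1high macrophages. Ltb, which encodes lymphotoxin beta, was 4.43-fold higher (923 against 208).

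Within 2-fold were Klf4 (5124 against 4047), Rbpj (2114 against 1589), which carries the NOTCH signal to DNA, and Esam (264 against 165). Csf2rb, the shared signalling chain of the receptors for GM-CSF, IL-3 and IL-5, was the exception of the list and 3.33-fold lower (2517 against 8384). Its paralogue Csf2rb2 was at 3042 against 2205, and the GM-CSF receptor alpha chain Csf2ra at 1383 against 2281 in the probe set used but 1083 against 403 in another. Transcripts of near-identical paralogues may be read by the same probes.

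Of 13 measured genes shared by both DC lineages, 11 were at or above the floor in CX3CR1- cells and 10 in DCs. Zbtb46, a transcription factor restricted to conventional DCs among myeloid cells, stood at 861 and 813, against 118 in CX3CR1high macrophages and 85.6 in CD11b+ cells, and another probe set gave 456 against 607. Kit, the stem cell factor receptor, was equally even at 1917 and 1897, with 94.6 and 159 in the others. Flt3, the growth factor receptor that sustains DCs, was 3.08-fold lower in the CX3CR1- cells (837 against 2579) yet far above the 19 and 34.4 of the CX3CR1high macrophages and CD11b+ cells, both under the floor. The peptidase Dpp4 (2.46-fold lower, 759 against 1866), Cd207 (3.72-fold lower, 126 against 468) and Hmgn3 (3.29-fold lower) followed Flt3. Over this list 0 of 11 members with a ratio were higher by 2-fold or more and 6 lower, and the log2 ratios had a median of -1.03. In bulk samples, fewer cells of a type and less RNA per cell cannot be told apart.

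Of 22 measured genes of mature, migrating DCs, 21 were at or above the floor in each of the 4 arrays. Their summed signal was 107814 in the CX3CR1- cells, 75327 in the DCs, 52758 in CX3CR1high macrophages and 47520 in CD11b+ cells. In the CX3CR1- cells 7 of 21 were at least 2-fold higher and 1 lower (median log2 ratio 0.82). Among all genes 13.7% and 8.7% were. Ccr7, which guides DCs along lymph, had equal signals (7927 against 8091), against 576 in CX3CR1high macrophages and 397 in CD11b+ cells. Ccl17, a chemokine that attracts T cells through CCR4, was equally level (8559.5 against 9138), with 348 and 174 in the others. Its relative Ccl22 was 2.57-fold higher in the CX3CR1- cells (15935 against 6194), against 393 and 220.3. These 3 transcripts had high signals in these 2 arrays and low ones in the 2 others.

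Among further members, Socs2, a feedback inhibitor of cytokine signalling, was 3.66-fold higher (1189 against 325), the NF-kappa-B subunit gene Nfkb2 3.34-fold higher (3543 against 1061) and Stat4 2.55-fold higher (2339 against 918). Marcksl1, an actin-binding protein, was 4.49-fold higher (7364 against 1639), but it was as high in the CD11b+ cells (8269.8). The actin-bundling gene Fscn1, a mark of mature DCs, was within 2-fold (7615 against 4159), as were Cd83 (20323 against 20826), Cd40 (4461 against 2426), Relb (2249 against 1556) and Birc3 (8471 against 4761). Cd83 and Birc3 were also high in the CX3CR1high macrophages (19995 and 6538) and the CD11b+ cells (14953.5 and 5886). Cd40 stood there at 2343 and 1810, and Fscn1 at 1579 and 819. The lower member was Laptm4b, a lysosomal membrane protein (6.9-fold lower, 195 against 1347), whose 2 other probe sets were also lower.

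**Figure D3:**
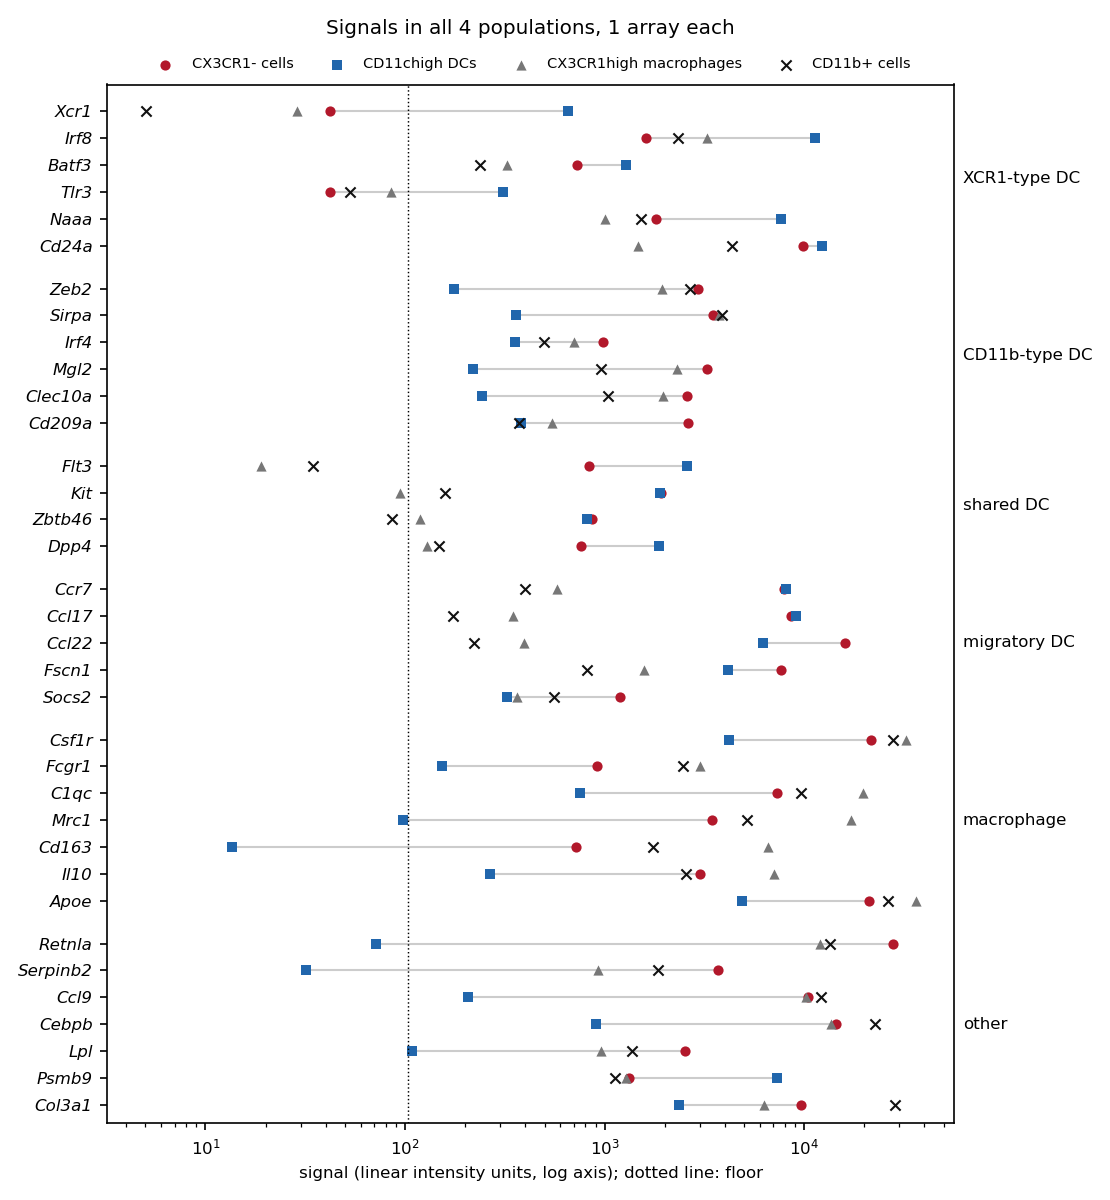
Signals (linear units, log axis) of genes named in the text in the 4 populations, 1 array each, grouped by what the genes are known for; the grey bar joins the CX3CR1- cells and the DCs, and positions compare within a row only. Kit, Zbtb46, Ccr7 and Ccl17 nearly coincide in those 2 arrays and lie far to the right of the others, while macrophage genes such as Mrc1 and C1qc place the CX3CR1- cells between the DCs and the CX3CR1high macrophages.

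Of the transcription factors known from DCs, 28 had a ratio, 8 were higher by 2-fold or more and 2 lower, and the log2 ratios had a median of 0.40. Beyond Zeb2, Irf4 and Notch2, the higher ones were Prdm1, which encodes BLIMP-1 (6.15-fold, 1086 against 177), the inhibitor Id3 (4.17-fold, 914 against 219), Tcf4 (3.08-fold, 979.7 against 318), Stat3 (2.7-fold, 7864 against 2911) and Stat5a (2.24-fold, 2001 against 895). Prdm1, Id3 and Tcf4 were higher again in the CX3CR1high macrophages (1593, 1314 and 1250.2), whereas Stat5a was not (395). Etv6 (2.34-fold lower, 331 against 774) and Irf8 were the lower ones. Spi1, which encodes the myeloid factor PU.1, was level (2749 against 2374), the aryl hydrocarbon receptor Ahr was within 2-fold (4884 against 6351), and Bhlhe40 was high in both (11331 against 9073) over 2205 in the CX3CR1high macrophages.

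Transcription factors of the macrophage list stood higher in 8 of 11 members with a ratio and lower in 0, and the log2 ratios had a median of 1.38. Cebpb, a basic leucine zipper factor of monocytes and macrophages, led them at 15.9-fold (14433 against 908), and a second probe set gave 2554 against 240. Its signal was similar in the CX3CR1high macrophages (13589.7) and highest in the CD11b+ cells (22615). Cebpa (3.83-fold, 505 against 132), Egr2 (3.24-fold, 744 against 229.5), Cebpd (2.67-fold, 1259 against 471) and the heme-responsive repressor Bach1 (2.76-fold, 8875 against 3215) came after it. Spic, which the series is titled for, was just under the floor in the CX3CR1- cells in the probe set used (102 against 29.2, no ratio) and above it in the other (176 against 87.1), against 936 and 2163 in the CX3CR1high macrophages. Maf, Pparg and Tfec were under the floor in both arrays.

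Tissue macrophage genes were higher in the CX3CR1- cells. Of 18 with a ratio, 16 were higher by 2-fold or more, 12 of them past 4-fold, and 0 lower. The median of the 18 log2 ratios was 2.42. Mrc1, a receptor for mannose-bearing glycoproteins, was higher by at least 33.4-fold (3436 against 97.8), and the hemoglobin scavenger receptor Cd163 by at least 6.98-fold (718 against 13.6). The complement genes C1qa (7.27-fold), C1qb (9.15-fold) and C1qc (9.62-fold, 7270.1 against 756), which lie side by side and form 1 protein complex, kept together. Csf1r, the receptor of the macrophage growth factor CSF1, was 5.14-fold higher (21522 against 4191), and its 2 other probe sets gave log2 ratios of 2.79 and 2.95. The cytokine Il10 was 11.2-fold higher (3003 against 267), the chemokine Pf4 10.7-fold and the high-affinity IgG receptor Fcgr1 5.98-fold.

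These macrophage signals were intermediate. In the CX3CR1high macrophages Mrc1 stood at 17169, Cd163 at 6566, C1qc at 19587 and Il10 at 7028, above the CX3CR1- cells in each case. Summed over the 20 measured members, the list came to 115831 signal units in the CX3CR1- cells, 22757 in the DCs, 265122 in CX3CR1high macrophages and 160892 in CD11b+ cells. Of the 20, 17 were at or above the floor in CX3CR1- cells and 12 in DCs. Cd68, a lysosomal glycoprotein, was level with the DCs (3935 against 4047) and at 12054 in the CX3CR1high macrophages, and Hpgds and Vsig4 were under the floor in the CX3CR1- cells. Whether macrophages in the sorted fraction account for part of these signals was not tested.

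The promoter of C1qc is shown because the 3 C1q genes had ratios close to each other, and that of Retnla because its bound was the largest of all genes. Both are 300-base windows from RefSeq (GRCm38.p6), 250 bases before the start and 50 after, on chr4:136892865-136893164 (minus strand) and chr16:48842359-48842658 (plus strand). Capitals mark matches, on either strand, to GAGGAAGT, a core bound by PU.1, to TTGCNNAA, a core bound by C/EBP factors, and to TTC and GAA with 4 bases between them, a spacing bound by STAT6.
C1qc: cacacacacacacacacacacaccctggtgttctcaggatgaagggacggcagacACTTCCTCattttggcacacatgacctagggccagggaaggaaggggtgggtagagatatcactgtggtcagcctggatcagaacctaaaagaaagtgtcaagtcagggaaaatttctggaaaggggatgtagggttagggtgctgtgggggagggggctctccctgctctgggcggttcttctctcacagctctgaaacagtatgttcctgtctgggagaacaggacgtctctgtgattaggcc
Retnla: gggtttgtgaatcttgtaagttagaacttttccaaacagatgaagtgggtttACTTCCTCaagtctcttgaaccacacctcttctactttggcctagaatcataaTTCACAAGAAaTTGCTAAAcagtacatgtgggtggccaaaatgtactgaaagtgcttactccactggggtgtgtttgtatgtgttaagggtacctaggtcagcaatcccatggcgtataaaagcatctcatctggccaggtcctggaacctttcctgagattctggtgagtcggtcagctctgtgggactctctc
The GAGGAAGT core lies in both windows, on the opposite strand, and the Retnla window also holds the other 2 motifs, 1 base apart. Among 32851 RefSeq windows of this length, 3.2% held GAGGAAGT, 10.8% TTGCNNAA and 6.95% the STAT6 spacing. In the 255 windows of genes at least 4-fold higher the shares were 4.71%, 13.3% and 7.45%, and in the 7694 windows of genes with a ratio 3.26%, 8.53% and 5.34%. In the 55 windows of genes at least 4-fold lower they were 7.27%, 9.09% and 7.27%, so GAGGAAGT had its largest share there. A match is a run of letters and not a measured site, and no test was made of these shares.

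Retnla, a secreted resistin-like protein induced by IL-4 and IL-13, stood at 27748 in the CX3CR1- cells and under the floor in the DCs (71.9), at least 269.7-fold higher. It reached 11955 in CX3CR1high macrophages and 13508 in CD11b+ cells, so the CX3CR1- cells had the highest of the 4. The list of genes known mainly from alternative macrophage activation also holds Acod1, which belongs to inflammatory activation. Of its 17 genes with a ratio, 10 were higher by 2-fold or more and 1, Socs1 (114 against 237), lower. Their log2 ratios had a median of 1.47. Besides lectins and Ccl22 the higher genes included Ccl24 (at least 4.25-fold, 437 against 5.92), an attractant of eosinophils, and Acod1 (at least 27.4-fold, 2819 against 99.6), which makes itaconate. Arg1 was under the floor in both arrays, and so was Chil3 (53.3 and 3.26), against 13237 in the CD11b+ cells.

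Receptors for immune complexes and complement followed the macrophage genes. Of 9 Fc receptor genes with a ratio, 7 were higher by 2-fold or more and 0 lower (median log2 ratio 2.09), including the activating receptors Fcgr3 (8.0-fold, 4859.5 against 608) and Fcgr4 (7.33-fold), their signalling chain Fcer1g (4.26-fold) and the inhibitory Fcgr2b (3.81-fold, 6003 against 1576). The neonatal receptor Fcgrt was level (868 against 800.2). In the complement list 7 of 13 members were higher and 0 lower (median 1.06). They include Itgam, which the sort fixed, the anaphylatoxin receptor C3ar1 (7.27-fold, 1005 against 138) and the inhibitor Serping1 (4.2-fold). Properdin, Cfp, was within 2-fold (4041 against 2429).

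Genes of uptake and of lipid handling were higher in most members. In the list of uptake and scavenger receptors 10 of 15 were higher and 2 lower (median 1.70), with Lrp1 (13.1-fold, 1802 against 137), Stab1 (at least 11.7-fold), Msr1 (8.83-fold), the apoptotic cell receptor Axl (5.08-fold, 996 against 196) and its ligand Gas6 (at least 5.97-fold). Havcr2, the checkpoint receptor TIM-3, and Cd36 were the lower members, Havcr2 by 3.1-fold (1714 against 5316). In the lipid list 11 of 12 were higher and 0 lower (median 1.76), with the lipase Lpl (23.2-fold, 2513 against 108), the sterol exporter Abca1 (17.5-fold, 6799 against 389) and Apoe (4.32-fold, 21021 against 4864). Lpl was higher in the CX3CR1- cells than in the CX3CR1high macrophages (964).

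Of 23 lysosome genes 8 were higher by 2-fold or more, 1 lower and 14 within 2-fold, and the log2 ratios had a median of 0.63. The aspartic protease Ctsd (8.39-fold, 3265 against 389) and the legumain gene Lgmn (5.23-fold, 6954 against 1330.2) led, whereas the cysteine proteases Ctss (22258 against 14758) and Ctsz (16719 against 17114) were within 2-fold and Gusb, beta-glucuronidase, was 2.66-fold lower. Among heme and iron genes 8 of 13 were higher and 0 lower (median 1.47), led by heme oxygenase Hmox1 (8.13-fold, 2595 against 319). The phagosomal metal transporter Slc11a1 (5.2-fold) and the iron exporter Slc40a1 (at least 3.44-fold, 354 against 83.3) were also higher, and the ferritin gene Fth1 was within 2-fold (35462 against 24069.8).

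Monocyte genes were mixed. Of 12 with a ratio, 5 were higher by 2-fold or more and 1 lower (median 0.78). Fibronectin Fn1 (20.1-fold, 5494 against 274), the clotting factor F13a1 (at least 18.5-fold), thrombospondin Thbs1 (18.3-fold, 5979 against 327) and the lectin Clec4e (6.73-fold) were the members past 4-fold. Ccr2, the CCL2 receptor of monocytes, was level (752 against 676), as were Lyz2 (25411 against 21900.3) and S100a6, and S100a4 was within 2-fold (19758 against 11507). Plac8 was 2.71-fold lower (4087 against 11062). Ly6c1 and Ly6c2 were not analysed here.

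**Figure D4:**
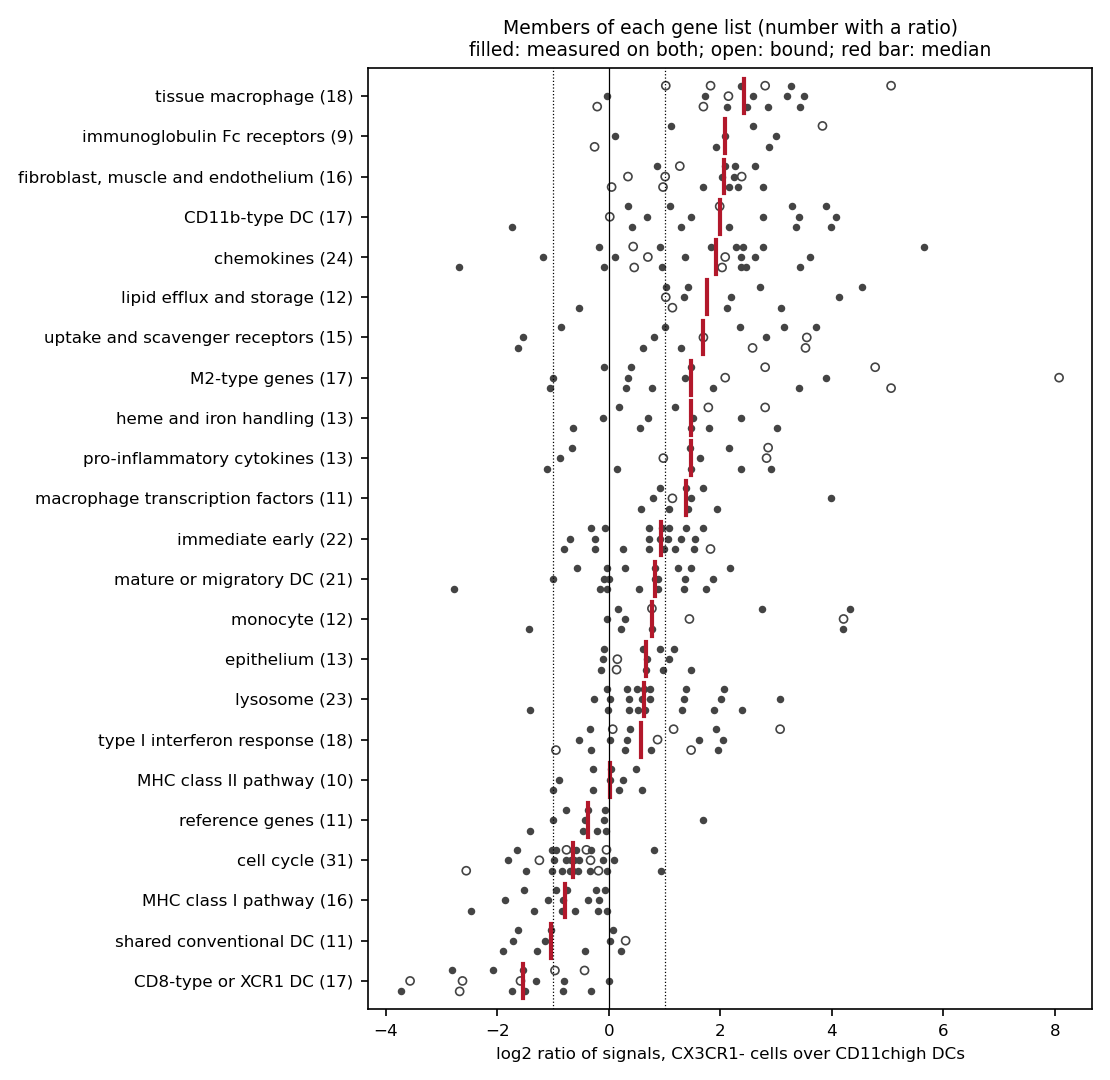
Log2 ratios of signals (CX3CR1- cells over DCs) for every member with a ratio in the gene lists shown, ordered by median; filled circles were at or above the floor in both arrays, open circles are bounds, red bars are medians, and dotted lines mark 2-fold. The tissue macrophage list has the highest median (2.42) and the list of XCR1-lineage genes the lowest (-1.55).

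Transcripts of the MHC class II pathway did not separate the arrays as a list. Of 10 measured genes 0 were higher by 2-fold or more and 1 lower, and the median log2 ratio was 0.03, or -0.19 with equal medians. H2-Ab1 (34313 against 28686), H2-Eb1 (33398 against 29556) and the invariant chain Cd74 (31844 against 31210) were among the brightest probe sets. The lower gene was H2-DMb2, part of the peptide exchange factor H2-DM (2.0-fold lower, 1618 against 3237), and H2-Oa, part of its inhibitor, stood at 1672 against 3113. Both were far lower in the CX3CR1high macrophages (338 and 201) and the CD11b+ cells (90.3 and 121). A probe set shared by H2-Ob, the other part of that inhibitor, and Gm20506 was outside the list and 8.14-fold lower (218 against 1774).

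In the class I pathway 5 of 16 members were at least 2-fold lower and 0 higher, and the median log2 ratio was -0.79. In the probe sets used all 16 ratios were under 0, but other probe sets of H2-D1, H2-K1 and Canx were above it, by at most 0.50. Of the immunoproteasome, which cuts proteins into peptides for class I, the catalytic subunits Psmb9 (5.53-fold lower, 1322 against 7308) and Psmb8 (3.64-fold lower, 2861 against 10416) had the lowest ratios, and Psmb10 was within 2-fold (1261 against 2446). Its activator Psme1 was 2.54-fold lower (4697 against 11939.5), the peptide pump Tap1 2.13-fold lower (2196 against 4685) and the chaperone Pdia3 2.87-fold lower (2814 against 8079). For Psmb9 and Psmb8 the signals of the CX3CR1- cells were close to those of the CX3CR1high macrophages (1282 and 2963) and CD11b+ cells (1121 and 2510.5), so the DCs stood alone. The class I chains H2-K1 (18847 against 19751) and H2-D1 (1874 against 2196) and B2m (19437 against 25234) were within 2-fold. Reference genes had a median log2 ratio of -0.38, and the signs of RNA quality given above differ in the same arrays; their part in this list was not tested.

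Psmb9 and Tap1 lie head to head, and their RefSeq windows share 275 of 300 bases. The window of Psmb9 (GRCm38.p6, chr17:34187281-34187580, minus strand) is shown because both genes were lower, and it would be in capitals at any match to the motifs above or to GAAA repeated after 2 bases, a core bound by IRF factors.
Psmb9: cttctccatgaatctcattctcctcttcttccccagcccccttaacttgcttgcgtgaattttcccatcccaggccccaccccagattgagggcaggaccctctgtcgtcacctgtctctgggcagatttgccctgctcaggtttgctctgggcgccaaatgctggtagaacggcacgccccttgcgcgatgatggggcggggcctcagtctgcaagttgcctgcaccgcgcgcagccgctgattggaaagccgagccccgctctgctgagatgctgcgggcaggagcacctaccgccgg
There were 0 matches in it. The IRF core was in 3.44% of all windows, in 4.71% of the windows of genes at least 4-fold higher and in 0 of the 55 windows of genes at least 4-fold lower. The absence of these letters says nothing about the factors.

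Of 21 costimulatory and coinhibitory genes 3 were higher and 3 lower (median 0.17), where 13.7% and 8.7% of all genes were. Vsir, a coinhibitory receptor known as VISTA, was 7.01-fold higher (1681 against 239.7), Tnfsf9, the ligand of 4-1BB, 4.0-fold higher (1661 against 415) and Cd80 2.35-fold higher (3673 against 1559.8). Cd80 was also above the CX3CR1high macrophages (845). Cd48 (5.17-fold lower, 582 against 3007), Havcr2 and Slamf7 (2.1-fold lower) were the lower members. The PD-1 ligand Cd274 stood at 4181 against 2370.5 and Pdcd1lg2, which encodes the other ligand, at 431 against 859. Cd86 was within 2-fold in the probe set used (6841 against 5605) but 1940 against 4305 in another.

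Of 15 cytokine genes that direct T cells 5 were higher and 1 lower (median 0.34), beside 13.7% and 8.7% of all genes. Il12b, the shared subunit of IL-12 and IL-23, was 2.15-fold lower in the CX3CR1- cells (496 against 1066), and under the floor in the CX3CR1high macrophages (68) and CD11b+ cells (31.4). Il23a stood at 124 against 196 and Il12a was under the floor in both. Il6 was 2.76-fold higher (5274 against 1911), Il1a 3.09-fold higher (539 against 174) and Ebi3, a subunit of IL-27, 2.41-fold higher (3028 against 1258). Il1b was among the highest signals in both (29043 against 26343).

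In the list of pro-inflammatory cytokines and mediators 8 of 13 were higher and 1 lower (median 1.46). The prostaglandin-forming enzyme Ptgs2 was 7.55-fold higher (6068 against 804), Tnf at least 7.24-fold higher (745 against 94.2), the growth factor Csf1 at least 7.1-fold higher (730.2 against 98.2) and the IL-1 receptor antagonist Il1rn 5.17-fold higher (7156 against 1383). Csf1 was higher in the CX3CR1- cells than in the CX3CR1high macrophages (363). In the eicosanoid list 6 of 16 were higher and 0 lower (median 0.27), with the lipoxygenase Alox15 at least 8.75-fold higher (900.2 against 4.55) and the phospholipases Pla2g7 (5.67-fold) and Pla2g4a (at least 4.54-fold).

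Chemokines were among the widest differences, with 14 of 24 members at least 2-fold higher, 2 lower and a median log2 ratio of 1.93. Ccl9 had the largest ratio measured in both arrays of all genes, 50.2-fold (10384 against 207), and 2478 against 139 in a second probe set. Its neighbour in the genome Ccl6 was 12.2-fold higher (14487 against 1189.7). For both, the CX3CR1high macrophages (10149 and 9815) and CD11b+ cells (12172 and 17173) were also high, so the DCs were the low array. The monocyte attractants Ccl2 (5.19-fold, 1255 against 242), Ccl7 (6.76-fold, 874 against 129) and Ccl8 (5.51-fold, 895 against 163) were higher too, but reached 18214, 17991 and 19869 in the CX3CR1high macrophages. The neutrophil attractants Cxcl1 (5.32-fold) and Cxcl2 (5.17-fold, 17439 against 3376) were also higher. Ccl5 was 3.54-fold higher (3425 against 967), and unlike the monocyte attractants it was lower in the CX3CR1high macrophages (1513).

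The lower chemokines were those of CXCR3, the receptor of effector T cells. Cxcl9 was 6.45-fold lower in the CX3CR1- cells (1249 against 8052) and Cxcl11 2.27-fold lower (133 against 302), whereas Cxcl10 was within 2-fold in the other direction (2424 against 1289.6). Ccl4 (1947 against 1796) and Cxcl16 (4569.9 against 5148) were level. Cxcr3 itself was under the floor in the CX3CR1- cells (53.5) and at 254 in the DCs.

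Chemoattractant receptors were higher in 6 of 18 members and lower in 3 (median 0.42), or in 5 of 17 and 3 without Cx3cr1, a gene of the sort. The shares over all genes were 13.7% and 8.7%. Higher were C3ar1, Ccr1 (4.5-fold, 4318 against 959.96), Ccrl2, Cxcr4 (3.26-fold, 5995 against 1837) and the leukotriene receptor Ltb4r1. Lower, next to Xcr1 and Cxcr3, was the gut-homing receptor Ccr9 (at least 2.61-fold lower, 41.3 against 269). Its other probe sets gave 122 against 988, and 2.77 against 104 with the DCs close to the floor. Ccr6 stood at 122 against 153.

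Growth factor and cytokine receptors were higher in 11 of 27 members and lower in 3 (median 0.30). Il7r, the IL-7 receptor alpha chain, was 6.26-fold higher (7311 against 1168) and highest in the CX3CR1- cells of the 4 populations, with 2636 in CX3CR1high macrophages and 1737 in CD11b+ cells. Il1r1 was at least 4.5-fold higher (463 against 28.4), Tgfbr1 3.13-fold higher (3267 against 1044) and the IL-21 receptor Il21r 2.65-fold higher (926 against 349). The decoy receptor Il1r2 was high in both (18326 against 14910.3) over 5069.8 and 4581 in the others. The lower genes were Csf2rb, Flt3 and the TGF-beta family receptor Acvrl1 (2.33-fold lower, 507 against 1179.7).

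Of 17 genes of Toll-like receptor and NOD signalling 4 were higher by 2-fold or more and 1 lower (median 0.42), beside 13.7% and 8.7% of all genes. Of the 11 measured in both arrays 8 were within 2-fold. Tlr2, the receptor of bacterial lipopeptides, was 9.77-fold higher (1594 against 163), its partner Tlr1 at least 8.51-fold higher (876 against 92.5), the lipopolysaccharide coreceptor Cd14 5.58-fold higher (21313 against 3823) and the inflammasome gene Nlrp3 2.87-fold higher (1828 against 636). Tlr3 was the lower gene. The shared adaptor Myd88 (1727 against 1615) and the chaperone Unc93b1 (3226 against 2969) were level, and Tlr4 was at 158 against 46.4, under the floor in the DCs.

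C-type lectins split between the populations, with 11 of 21 higher and 3 lower (median 1.73, or 0.31 without probe sets whose names mark them as able to read several transcripts). Next to Mrc1, Mgl2, Clec10a and Cd209a, the higher ones were Clec4a2 (10.3-fold, 1555 against 151), Clec4d (8.03-fold), Clec4n (3.66-fold) and Cd209c (at least 5.98-fold). Cd209c was under the floor in all arrays but that of the CX3CR1- cells (615, against 40.2, 44.2 and 45.4). Cd209d had 342 against 66.3. In contrast Cd209f reached 1753 in the CX3CR1high macrophages and 113 in the CX3CR1- cells. Lower were Klrk1, which encodes the NKG2D receptor (5.96-fold lower, 574 against 3417), Cd207 and Ly75. The fungal receptor Clec7a was high and within 2-fold (15156 against 12246), and the killer lectin-like receptor Klrb1b was level (2222 against 2591) over 279 and 123 in the others. Members of these families are alike in sequence, and probes may read more than 1 of them.

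Proteases and their inhibitors were higher in 14 of 27 members and lower in 3 (median 1.29). Serpinb2, a plasminogen activator inhibitor, was at least 35.9-fold higher (3689.99 against 31.7) and highest in the CX3CR1- cells, over 929 and 1859.6. The collagenase Mmp13 was 12.2-fold higher (8837 against 723), the membrane-bound Mmp14 12.1-fold higher (2566 against 211) and Mmp12 2.54-fold higher (1569.96 against 617), with Mmp12 at 434 in the CX3CR1high macrophages. Other inhibitors of the serpin family went the other way, with Serpinb6b 4.8-fold lower (1504 against 7224) and Serpinb1a 4.39-fold lower (671 against 2943). Serpinb9, which inhibits granzyme B, stood at 6409.9 against 11285, against 713 and 346 in the others. The other lower member was Adam19 (2.05-fold lower).

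Genes of retinoic acid and TGF-beta signalling were higher in 8 of 21 members and lower in 0 (median 0.81). Aldh1a2, the retinal dehydrogenase by which gut DCs make retinoic acid, stood at 487 against 348, within 2-fold, and at 99.4 and 175 in the others. The retinal and retinol enzymes Rdh10 (3.59-fold, 486 against 135) and Dhrs3 (3.47-fold, 759 against 219) and the TGF-beta binding protein Ltbp3 (6.0-fold, 946 against 158) were higher. Tgfb1 (873 against 689) and Tgfbr2 (2317 against 1831) were within 2-fold. Among integrins 3 of 14 were higher and 2 lower (median 0.33). Without Itgam, Itgae and Itgax, which the sort or sample title names, 2 of 11 were higher and 1 lower (median 0.15). These counts lie near the 13.7% and 8.7% of all genes. Itgb5 was 7.07-fold higher (1030.4 against 146) and Itga3 2.17-fold lower (287 against 624). Itgb7, the partner of CD103 in the integrin that binds E-cadherin, was at 2275 against 3397, against 262 in the CX3CR1high macrophages.

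Interferon response genes were higher in 7 of 18 members and lower in 0 (median 0.57), led by Ifit1 (at least 8.4-fold, 865 against 90.7) and Oas1a (4.12-fold, 1082 against 262), while Irf7 (363 against 358) was level and Mx1 stood at 250.3 against 314. Immediate early genes, which also answer to the handling of cells, were higher in 9 of 22 and lower in 0 (median 0.93), with Egr1 at 18497 against 7567 and Fos at 15605 against 13078. Cell cycle genes were lower in 7 of 31 and higher in 0 (median -0.64). The ribonucleotide reductase subunit Rrm2 was at least 5.9-fold lower in the probe set used (98.6 against 607) and lower by a log2 ratio of -1.51 in another (596 against 1699.98), Ube2c 3.51-fold lower (248 against 869.7) and Mcm6 2.8-fold lower (674 against 1890.3), yet the proliferation marker Mki67 was within 2-fold in the other direction (2492 against 1299).

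Actin and motility genes were level as a list, with 2 of 31 higher and 2 lower (median 0.09, or -0.11 with equal medians). Scin, the actin-severing scinderin, was 7.91-fold lower (498 against 3938), and 109 and 26 in the others. The capping protein gene Capg was 5.79-fold higher (2204 against 380.4). In the S100 family 1 of 6 was higher and 0 lower, beside 13.7% and 8.7% of all genes (median 0.14, or -0.08 with equal medians). S100a8 and S100a9 were under the floor in both arrays.

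Markers of other cells were read beside these lists. Fibroblast, muscle and endothelial genes were higher in the CX3CR1- cells in 12 of 16 members and lower in 0, and the log2 ratios had a median of 2.06. The collagen Col3a1 stood at 9639 against 2360.5, the proteoglycan Dcn at 4971 against 1173 and smooth muscle actin Acta2 at 1736 against 367. The summed signal of the 18 measured members was 27966 in the CX3CR1- cells, 6416 in the DCs, 21655 in CX3CR1high macrophages and 72509 in CD11b+ cells, with 16 and 10 members at or above the floor in the first 2. Matrix and remodelling genes such as Fn1, Thbs1, Timp3 and Mmp2 are also made by such cells, and the part of stromal RNA in their ratios was not tested. Epithelial genes were higher in 3 of 13 and lower in 0 (median 0.66), beside 13.7% and 8.7% of all genes. Krt8 stood at 2530.4 against 1192 and Epcam at 839 against 908. The summed signal of the 17 members was 8131 against 5034.

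Some eosinophil genes reached the floor in the CX3CR1- array, and some in that of the CD11b+ cells. Of 6 measured, 4 did so in the first, 3 in the second, and 0 in the DCs or CX3CR1high macrophages. The summed signals were 1758, 950, 129.7 and 261 in that order. Alox15, also a member of the eicosanoid list, gave 900 of the 1758. Among all genes 55.8% reached the floor on the CX3CR1- array and 52.7% on the DC array. The signals that follow are those of the CX3CR1- cells against the DCs. Siglecf was at 544 against 74, Ccr3 at 141 against 1.11 and Prg2 at 109.6 against 16, whereas the granule peroxidase Epx was at 3.44 and 2.41. In the mast cell and basophil list only Hdc, which makes histamine (8.46-fold, 1376 against 163), and Gata2 had a ratio, and 10 of 12 members were under the floor in both. Neutrophil markers were likewise under the floor in 10 of 12 members, with Mmp9 and Csf3r as the exceptions. Among T, NK and innate lymphoid genes 13 of 20 had no ratio, including Cd3e, Cd3g, Ncr1 and Gata3, and of 7 with a ratio 2 were higher and 1 lower (median 0.48). In the plasmacytoid DC list 2 of 10 were higher and 1 lower (median 0.34), beside 13.7% and 8.7% of all genes. B and plasma cell genes were higher in 2 of 7 (Sdc1 and Prdm1) and lower in 1, beside the same shares of all genes (median 0.03, or -0.19 with equal medians). The lower one was Iglv1 (431 against 2142), with 5576 in CX3CR1high macrophages and 5155 in CD11b+ cells. The antibody joining chain Jchain stood at 10329 against 10118, and Cd79a, Ms4a1 and Pax5 were under the floor in both. The part of these cells in other results was not tested.

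Beyond the lists, the genes furthest apart had varied functions. The inhibitory receptor Cd300lf was 22.6-fold higher in the CX3CR1- cells (3224 against 143), against 254 in CX3CR1high macrophages and 2233 in CD11b+ cells. Notch1 was 17.5-fold higher (3497 against 199.99), the matrix protein gene Ecm1 17-fold higher (3814 against 224), the ERK phosphatase Dusp6 16.3-fold higher (2969 against 183), the lipid hydroxylase Cyp4f18 13.6-fold higher (5632 against 415) and the GTPase-activating Arap3 13.6-fold higher (2099 against 155). As bounds, Sh3bp5 (at least 19.8-fold), the C1q-type receptor Cd93 (at least 18.6-fold), the clotting factor F5 (at least 17.4-fold, 1787 against 27.7) and Fcrls (at least 14.2-fold) were furthest after the listed genes. F5 was highest in the CX3CR1- cells, with 212 and 1156 in the others.

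In the other direction Rtl8c, a retrotransposon-derived gene, had the largest ratio, 19.3-fold lower (132 against 2556), with 131 and 65.4 in the others. Ppt1, a lysosomal thioesterase, was 11-fold lower (929.6 against 10267), and a second probe set gave 384 against 7842. Ctla2b, a protease inhibitor-like gene, was 12.5-fold lower (322 against 4022). The isoprenoid enzyme Fdps (8.81-fold lower, 226 against 1986), the sulfotransferase Sult1a1 (8.23-fold lower), Bcl2l14 (7.93-fold lower), the replication factor Timeless (7.34-fold lower), the homeobox factor Hhex (7.04-fold lower, 325 against 2284), Qpct (6.49-fold lower) and the mitochondrial Ears2 (6.4-fold lower) completed the list. Bounds were led, after Gpr33, by Nsmaf (at least 8.41-fold lower, 90.1 against 865), and Esyt3 (at least 4.01-fold lower), Sema4f, Gnpnat1, Gpsm2 and Mpzl2 (at least 3.48-fold to at least 3.14-fold lower, short of the 4-fold limit) came after the listed genes. Scin, Hhex, Qpct and Itgae were also low in both other populations, so that the DCs stood alone for them.

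Probe sets of the same gene were compared for the called genes. Of the 254 higher genes 90 had another probe set with a ratio, and 97 of these 123 probe sets were higher by 2-fold or more and 0 lower by as much. Of the 58 lower genes 20 had another, and 24 of 30 were at least 2-fold lower, 0 at least 2-fold higher and 1 of the opposite sign. Among the named genes, other probe sets than the one used gave 1118 against 1040 for Cd80, 1849 against 2558 for Cd40, 917 against 1761 and 138 against 162 for Cd36, and 1377 against 874 for Il1rn. They gave 3570.2 against 1827 for Stat3, 229 against 193 for Stat5a, 497 against 102 for Birc3 and 76.6 against 181 for Ccr2. In each case the other probe set lay on another side of the 2-fold limit or of equality. These are examples and not all such cases. Further ones were Klf4 (1470 against 1557), Rbpj (321 against 383), Cxcl16 (3673 against 2985) and Ctsz (10534 against 6485).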

How the data were processed

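The 4 arrays were read from the table of signal intensities deposited by the authors, on a linear scale, for which the submitters' processing notes name MAS5 (version and settings not given in the sources used here). The 2% trimmed mean was about 500 on every array, so the authors' signals are scaled to an equal trimmed mean. Of 22690 probe sets, 64 controls, 691 naming several genes and 1555 naming none were left out, by the platform annotation. Each gene was read from 1 probe set, the brightest by mean log2 across all 4 arrays, passing over cross-hybridising (x-type) sets where another existed. The floor, ratios, 4-fold calls and 2-fold list counts are as described in the results; no statistical test is possible with 1 array per population, and precision is limited by how few arrays there are. The calculation was tested on simulated data.

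Named were the sorted genes, list members by ratio or known role, and in each direction the 15 largest measured ratios and 10 largest bounds, without predicted or clone names and genes with a probe set at least 2-fold the opposite way. The members and the 44 lists were chosen with earlier results of these data known. The promoter windows printed were chosen after values were seen. Alternatives were floors at the 25th and 75th percentile or none, a pseudocount, quantile normalization, equal medians, the mean over probe sets, and the exclusion of probe set types that can read several transcripts. Python 3.11.15, numpy 2.4.6, pandas 2.3.3 and matplotlib 3.10.9 were used.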

Additional observations from a re-analysis of the deposited data

Results flagged for a closer look

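Probe sets that name no gene lay outside the comparison, and some differed as far as the called genes. Of 527 with a ratio, 19 passed 4-fold towards the CX3CR1- cells and 3 towards the DCs. The largest ratio among the higher ones came from signals of 7669 in the CX3CR1- cells against 421 in the DCs, 513 in CX3CR1high macrophages and 1049 in CD11b+ cells. The lowest was that of a probe set with 186 against 3246 and with 74.7 and 87.5 in the others. Their genes are not named here.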

How the results depend on the processing

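The counts of called genes depended most on the floor. At 4-fold, a floor at the 25th percentile gave 452 higher and 93 lower genes, one at the 75th 89 and 26, and no floor 1107 and 522. Equal medians gave 194 and 92. The pseudocount, quantile normalization, the mean over probe sets, leaving out shared types and, added after seeing the data, a floor and probe set choice from the 2 compared arrays gave 207 to 313 higher and 48 to 68 lower. All named genes in the ranking that had a value kept their sign under every alternative. They were picked for large ratios and without opposite probe sets, so this outcome was close to fixed in advance. Among all called genes, Ola1, named after its values were seen, changed sign in one case, from a log2 ratio of -2.10 to 0.09 without shared types. The list of sorted genes changed the sign of its median, to -1.47, with the floor at the 75th percentile; fewer of its genes then had a ratio. Of 44 list medians, 12 moved by more than the spread between probe sets with the floor at the 75th percentile, 7 with it at the 25th, 7 with none, 6 with the pseudocount, 4 with the mean over probe sets, 1 with equal medians (chemokines, to 1.37) and 1 of 43 without shared types. At the 75th percentile the XCR1-lineage list moved to -0.83, integrins to -0.23 and T and NK genes to -0.76, and migratory DC genes moved to 0.21 with the mean over probe sets. The cause of these changes was not tested. No paired analysis was possible because each population has 1 array. Signal near the floor limits low genes, for which ratios are bounds.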

Other observations

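Probe sets naming several genes, which the comparison left out, held 3 past 4-fold towards the CX3CR1- cells and 4 towards the DCs. A probe set shared by H2-Ob, which encodes the beta chain of the class II inhibitor H2-O, and Gm20506 stood at 218 in the CX3CR1- cells, 1774 in the DCs, 84.1 in CX3CR1high macrophages and 49.2 in CD11b+ cells. A probe set shared by the complement genes C4a and C4b stood at 763 against 166, with 2437 and 3315 in the others.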
